A study of Mus musculus with 161 samples.

Results

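The comparison described here is the effect of interleukin-4 (IL-4) on M1 macrophages 24 h after a change of medium. Its members are 6 bulk RNA-seq libraries, chosen by their labels, of 145 in the expression matrix and 161 samples in the series. Bone marrow-derived macrophages (BMDMs) of 6 to 10 week old C57BL/6J mice were grown in RPMI-1640 with 20% horse serum and MCSF, the growth factor of macrophages, at 20 ng/mL. On day 7 they received lipopolysaccharide (LPS, at 100 ng/mL) together with interferon-γ (IFN-γ, at 25 ng/mL) for 24 h, which defines the M1 state, and were washed with PBS. In the M1 → M2 group (n = 3) the cells then received 25 ng/mL IL-4, and in the M1 → M0 group (n = 3) they went back to base medium, so that both were collected 48 h after the first stimulus and differ by design in IL-4 alone. A second pair of groups, M2 (25 ng/mL IL-4, n = 3) and M0 (base medium, n = 3), both collected 24 h after the first stimulus, gives the IL-4 effect on naive cells that had not been M1. All 12 libraries come from macrophages grown in vitro, and no label says whether the biological replicates came from separate mice or cultures. The p-values therefore speak only of the spread among libraries of the same condition, which may be technical. That spread was estimated over all 145 bulk libraries and not from the groups compared alone. The question the comparison addresses is how macrophages with an M1 past respond to the opposing cytokine, set against cells whose M1 stimulus was only taken away.

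IL-4 binds a receptor chain shared with IL-13, and the kinases Jak1 and Jak3 then phosphorylate the transcription factor Stat6, which enters the nucleus and binds paired half-sites in promoters and enhancers. In mouse macrophages the pathway is known for genes of arginine metabolism, chitinase-like proteins, lectin receptors and chemokines, and for transcription factors such as Egr2, Irf4 and Pparg that carry the response further. LPS acts through Tlr4 and NF-kB and IFN-γ through its own receptor, and the genes they induce include Nos2, the inducible nitric oxide synthase, and a large set of interferon-stimulated genes.

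Levels are given in FPKM (fragments mapped to a gene per length of its transcript and per library size), in the order of replicates 1, 2 and 3, and changes as differences of log2(FPKM + 1), which understate the change of low genes, with their standard errors and with p-values adjusted over all 8307 genes. Markers of macrophages were present in all 6 libraries: the summed level of 18 measured markers was 5905 to 7400.3 FPKM in M1 → M2 and 6863 to 8413 FPKM in M1 → M0. The 12 measured markers of neutrophils and their precursors summed to 4.08 to 40.7 FPKM in M1 → M2 and 5.96 to 31.0 FPKM in M1 → M0, and the 4 measured fibroblast markers to at most 3.74 FPKM. Replicate 1 stood apart from replicates 2 and 3 in both groups: Folr2, a folate receptor of macrophages, was at 29.5 FPKM in M1 → M2 replicate 1 against 136.0 and 103 FPKM in replicates 2 and 3, and at 23.1 FPKM in M1 → M0 replicate 1 against 159 and 135 FPKM. Pearson's r between libraries on the log2 scale, across genes, was 0.963 to 0.99 within a group and 0.933 to 0.967 between groups.

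IL-4 changed 850 of 8307 genes (10.2%) at a limma adjusted p below 0.05, of which 521 (6.27%) were higher and 329 (3.96%) lower than in M1 → M0. The changes were unequal in size. Most were small, with 70.2% of the called genes under 2-fold, whereas 41 genes rose by more than 4-fold on this scale and 1 fell by as much. That gene, Cav1, which encodes the caveolar coat protein caveolin-1 and is named after its values were seen, was at 2.48, 0.382 and 0.727 FPKM in M1 → M2 and 21.3, 7.42 and 4.79 FPKM in M1 → M0, a log2 change of -2.34 ± 0.49 (limma adjusted p = 1.77e-04) that was lost in the fit of the 6 libraries alone (limma adjusted p = 0.0726). The levels of the 3 and 3 libraries did not overlap for 794 of the 850 called genes, while over all genes 13.9% lay wholly higher and 9.65% wholly lower in M1 → M2. Leaving out replicate 2 of both groups left 457 calls, leaving out replicate 3 left 531, and without M1 → M0 replicate 2 alone the lower genes numbered 215. With the replicate number as a block, 521 genes were lower and 740 higher. Quantile normalization moved the split to 486 higher and 461 lower. In bulk RNA, fewer cells of a type and less RNA per cell cannot be told apart.

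**Figure D1:**
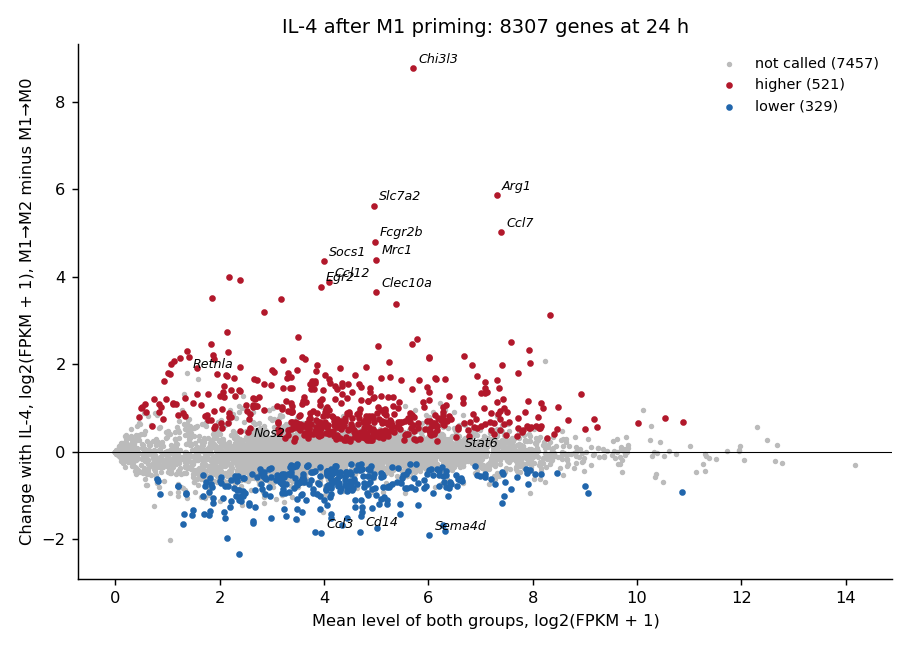
Each point is 1 of 8307 genes, with its mean level in the M1 → M2 and M1 → M0 groups as log2(FPKM + 1) on the x axis and its change with IL-4 on the y axis. The 521 higher genes reach 8.76 (Chi3l3) while the 329 lower genes reach -2.34, and Nos2 and Stat6 lie near 0.

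Among genes with a group mean of at least 20 FPKM, the largest rises included genes of arginine metabolism, lectins and chemokines. Chi3l3, a secreted chitinase-like protein also called Ym1, stood at 1501, 1025 and 745 FPKM in the M1 → M2 libraries against 2.09, 0.830 and 1.50 FPKM in M1 → M0. All 3 libraries with IL-4 thus lay far above a group close to the pseudocount of 1 FPKM, and the log2 change was 8.76 ± 0.41 (limma adjusted p = 1.03e-35). Arg1, the arginase that turns arginine into ornithine and urea, was at 1171, 1334 and 1114 FPKM against 17.1, 19.7 and 22.7 FPKM, a log2 change of 5.86 ± 0.54 (limma adjusted p = 3.57e-16). Slc7a2, an importer of arginine and other cationic amino acids, was at 262, 198 and 183 FPKM against 5.07, 2.61 and 2.69 FPKM, a change of 5.62 ± 0.36 (limma adjusted p = 1.53e-25). Neither pair of groups overlapped, which the rule for naming the largest rises required. Arg1 and Slc7a2 were the only members of the 15 measured genes of arginine and polyamine metabolism that passed the test (13.3% against 6.27% of all genes higher). The median of that list was 0.21 against 0.02 over all genes.

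Of 25 measured inflammatory cytokines and chemokines, 3 rose (12.0% against 6.27% of all genes), 1 fell (4% against 3.96%) and 21 did not pass the test, with a median of 0.00. Ccl7 was at 804, 1030.4 and 980.0 FPKM with IL-4 and 19.01, 28.4 and 40.3 FPKM without, a log2 change of 5.01 ± 0.52 (limma adjusted p = 1.11e-13). Its neighbour in function Ccl2, like Ccl7 a ligand of the receptor Ccr2, was at 1026, 877 and 934 FPKM against 102, 89.2 and 138 FPKM, a change of 3.12 ± 0.35 (limma adjusted p = 7.59e-12). Ccl12, another Ccr2 ligand of mice, was at 38.8, 71.7 and 71.3 FPKM against 0.661, 4.85 and 5.77 FPKM, with replicate 1 the lowest in both groups and a change of 3.88 ± 0.73 (limma adjusted p = 2.62e-05). These were the 3 members that rose. Ccl3, the member that fell and a chemokine made by activated macrophages, was at 7.69, 5.31 and 8.38 FPKM in M1 → M2 and 25.8, 28.01 and 30.3 FPKM in M1 → M0, a log2 change of -1.86 ± 0.35 (limma adjusted p = 2.99e-05). The groups did not overlap, which the rule for naming the largest falls required. The Ccr2 ligands that were called thus rose while Ccl3 fell. Ccl4 and Ccl5, of the same chemokine family, gave changes of -0.79 (limma adjusted p = 0.227) and -0.27 (limma adjusted p = 0.897) and did not pass.

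Fcγ and lectin receptors were also among the largest rises. Fcgr2b, the inhibitory Fcγ receptor, was at 160.3, 160.2 and 167 FPKM against 6.39, 3.47 and 5.14 FPKM, a log2 change of 4.80 ± 0.25 (limma adjusted p = 1.25e-31). Mrc1, the mannose receptor, was at 86.3, 174 and 163 FPKM against 2.30, 8.53 and 7.70 FPKM, a change of 4.39 ± 0.48 (limma adjusted p = 1.11e-12). Clec10a, a galactose-binding lectin, was at 114, 129.6 and 85.6 FPKM against 4.22, 11.1 and 9.42 FPKM, a change of 3.65 ± 0.59 (limma adjusted p = 7.66e-07). In each of these genes the lowest M1 → M2 library lay many times above the highest M1 → M0 library. The rule for naming the largest rises required that the groups not overlap. The list of 16 measured C-type lectins held 6 that rose (37.5% against 6.27% of all genes) and 2 that fell (12.5% against 3.96%). Its median was -0.13, and 5 of its members fell with the replicate block. Mgl2, a close relative of Clec10a whose reads may be shared with it, was at 27.6, 15.7 and 9.78 FPKM against 0.089, 0.131 and 0.049 FPKM (3.99 ± 0.29, limma adjusted p = 9.25e-22), and Clec7a, the β-glucan receptor dectin-1, at 747, 417 and 424 FPKM against 181, 83.2 and 66.2 FPKM (2.34 ± 0.32, limma adjusted p = 8.07e-09). Against this direction, Clec12a, an inhibitory lectin, was at 31.8, 44.9 and 47.1 FPKM in M1 → M2 and 104, 187 and 158 FPKM in M1 → M0, a change of -1.81 ± 0.22 (limma adjusted p = 2.00e-10).

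**Figure D2:**
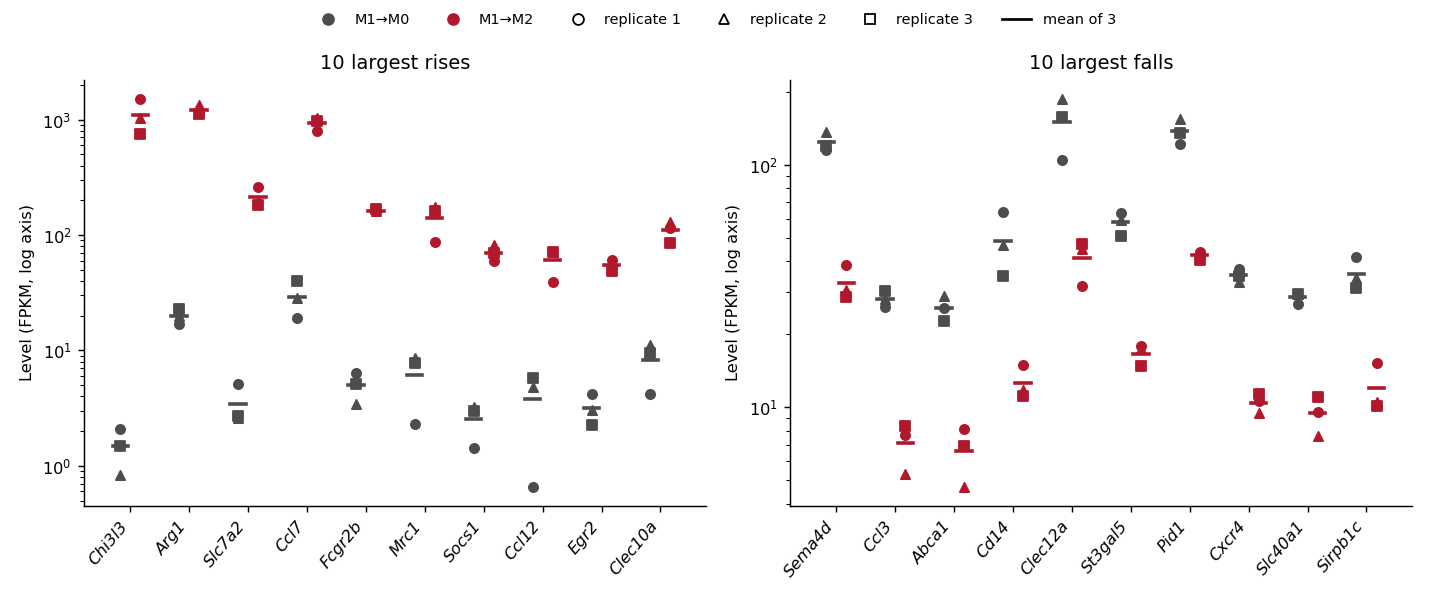
Levels in FPKM (log axis) of the 10 largest rises (left) and the 10 largest falls (right) in each of the 3 M1 → M0 and 3 M1 → M2 libraries, with a bar at the group mean and a marker for each replicate number. No gene overlaps between the groups, which the rule for naming them required, and the rises span a wider range of fold than the falls.

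Among genes with a group mean of at least 20 FPKM, the falls were smaller in size and held surface proteins and transporters. Sema4d, a semaphorin that acts on plexin receptors, was at 38.8, 30.6 and 28.4 FPKM with IL-4 and 115, 137 and 120.2 FPKM without, a log2 change of -1.91 ± 0.22 (limma adjusted p = 2.90e-11). Cd14, the co-receptor that hands LPS to Tlr4, was at 14.98, 11.8 and 11.2 FPKM against 63.9, 46.7 and 34.8 FPKM, a change of -1.83 ± 0.27 (limma adjusted p = 6.38e-08). Abca1, which exports cholesterol and is a target of the nuclear receptors LXR, was at 8.14, 4.71 and 6.90 FPKM against 25.7, 28.7 and 22.6 FPKM, a change of -1.84 ± 0.23 (limma adjusted p = 4.63e-10). Every library with IL-4 lay below every library without it in these genes, which the rule for naming the largest falls required. Slc40a1, the iron exporter ferroportin, was at 9.61, 7.63 and 11.1 FPKM against 26.6, 29.5 and 29.5 FPKM (-1.51 ± 0.24, limma adjusted p = 8.07e-07), and Cxcr4, the receptor of the chemokine Cxcl12, at 10.6, 9.43 and 11.3 FPKM against 37.4, 32.9 and 34.9 FPKM (-1.66 ± 0.41, limma adjusted p = 0.00203). The enzyme St3gal5, which makes the ganglioside GM3, changed by -1.74, the insulin signalling adaptor Pid1 by -1.66, and Sirpb1c, a member of the signal regulatory protein family with near-identical copies, by -1.51, each with 3 libraries wholly below the other 3, as the same rule required. Cd14 was the 1 member that fell among 25 measured genes of the Toll-like receptor and NF-kB pathway (4% against 3.96% of all genes, and 3 members with the replicate block). In that list 4 rose (16% against 6.27% of all genes), among them Nfkb1, the NF-kB subunit, at 45.3, 56.9 and 45.4 FPKM against 23.9, 28.2 and 23.2 FPKM (0.94 ± 0.19, limma adjusted p = 9.29e-05), and Tlr1 at 10.6, 15.02 and 15.97 FPKM against 3.45, 7.12 and 7.65 FPKM (1.11 ± 0.23, limma adjusted p = 1.44e-04). In the fit of the 6 libraries alone, the call of Tlr1 was lost. Myd88, the adaptor of this pathway, changed by -0.12 ± 0.16 (limma adjusted p = 0.789) and did not pass.

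Genes known to respond to IL-4 were split. Of 29 measured effector genes of the IL-4 response, 18 rose, 0 fell and 11 did not pass the test (62.1% against a background of 6.27% of genes higher), and the median change was 1.79 against 0.02 over all genes. The count stayed between 16 and 18 when 1 library or 1 replicate number was left out. Besides the genes above, Pdcd1lg2, the checkpoint ligand PD-L2, was at 11.7, 11.4 and 10.5 FPKM against 0.0502, 0.0851 and 0.0942 FPKM (3.50 ± 0.19, limma adjusted p = 6.06e-31). Atp6v0d2, a subunit of the vacuolar proton pump, was at 350.2, 386 and 446 FPKM against 106, 116 and 116 FPKM (1.79 ± 0.17, limma adjusted p = 6.53e-15), and the crosslinking enzyme Tgm2 at 83.4, 175 and 139.6 FPKM against 41.5, 65.3 and 50.9 FPKM (1.28 ± 0.25, limma adjusted p = 6.78e-05). Tgm2, named after its values were seen, was lost in the fit of the 6 libraries alone (limma adjusted p = 0.0674).

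The 11 effectors that did not pass, named here after their values were seen, included genes that naive cells made at high levels under IL-4. Retnla, the secreted resistin-like protein Fizz1, was at 1.74, 4.59 and 5.57 FPKM in M1 → M2 and 0.529, 0.277 and 0.243 FPKM in M1 → M0, whereas naive M2 cells held 6251, 5877 and 5453 FPKM at 24 h. The M1 → M2 libraries all lay above the M1 → M0 libraries, but far below naive M2, and the log2 change was 1.79 ± 0.66 (limma adjusted p = 0.0688). It passed without M1 → M2 replicate 1, with a log2 change of 2.17 (limma adjusted p = 0.0433), and in the fit of the 6 libraries alone. Ear11, an eosinophil-associated ribonuclease of a family with near-identical copies, was at 0.406, 0 and 0.509 FPKM, listed at 0 in all 3 M1 → M0 libraries, and at 206, 119 and 134 FPKM in naive M2. Ccl17 was listed at 0 in all 6 libraries and stood at 8.78, 2.67 and 4.19 FPKM in naive M2. Ccl22, a ligand of Ccr4 like Ccl17, was at 0.177, 0.351 and 0.532 FPKM against 0.123, 0.161 and 0.153 FPKM, and at 73.04, 39.2 and 26.3 FPKM in naive M2. Secreted chemokines and ribonucleases were not alone. Fn1, the matrix protein fibronectin, was at 0.516, 1.21 and 0.959 FPKM against 0.529, 1.95 and 0.473 FPKM with groups that overlapped (95% interval of the log2 change -1.16 to 1.15), and at 104, 104 and 171 FPKM in naive M2. Cdh1, the adhesion protein E-cadherin, changed by 0.51 ± 0.26 (limma adjusted p = 0.236) and passed with a pseudocount of 0.1 FPKM (2.12, limma adjusted p = 4.94e-05), and the eotaxin Ccl24 by 0.59 ± 0.46 (limma adjusted p = 0.547). Ear2 and Mmp12 passed with the replicate block, at 1.28 (limma adjusted p = 0.0084) and 0.95 (limma adjusted p = 0.0294), and the remaining members Rhoj and F13a1 changed by -0.51 and -0.07.

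The promoters of these genes were read from RefSeq (GRCm38.p6, 250 bases before to 50 after the start), with a window for 6506 of the 8307 genes and 22 of the 29 effectors. The letters TTC and GAA with 4 bases of any kind between them, the spacing of half-sites that Stat6 prefers, were searched on both strands, as was TTCNNNGAA, the same half-sites with a shorter gap, and no match of one overlapped a match of the other in any gene. The Stat6 spacing stood in the windows of 6.82% of all genes, 8.93% of the 403 genes that rose, 6.84% of the 263 that fell and 5 of the 22 effectors (22.7%). TTCNNNGAA stood in 8.15%, 7.69% and 9.51% and in 5 of the 22. The interferon response element, GAAA repeated after 2 bases of any kind, stood in 4.53%, 3.72% and 4.56% and in 0 of the 22, and the SREBP element TCACNCCAC in 1.37%, 2.48% and 1.90% and in 0 of the 22. The 5 effectors with the Stat6 spacing held both kinds of gene: Clec7a and Pdcd1lg2 rose, and Retnla, Ccl17 and Rhoj did not pass. The 250 bases before the start are shown for 2 that rose and 2 that did not, since they carry the same letters at different responses, with the match in capitals and each written 5′ to 3′ on the strand of its gene.
Pdcd1lg2 (chr19:29410669-29410918, plus strand): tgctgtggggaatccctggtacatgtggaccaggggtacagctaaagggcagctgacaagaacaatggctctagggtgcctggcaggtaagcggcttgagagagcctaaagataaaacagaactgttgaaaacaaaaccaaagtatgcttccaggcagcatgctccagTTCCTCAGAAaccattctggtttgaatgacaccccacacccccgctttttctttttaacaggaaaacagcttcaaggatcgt
Clec7a (chr6:129472780-129473029, minus strand): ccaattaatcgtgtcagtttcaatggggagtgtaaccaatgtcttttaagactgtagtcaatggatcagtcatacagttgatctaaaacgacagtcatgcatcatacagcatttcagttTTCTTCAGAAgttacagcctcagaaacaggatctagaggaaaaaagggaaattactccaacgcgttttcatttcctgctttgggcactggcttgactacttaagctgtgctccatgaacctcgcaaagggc
Retnla (chr16:48842359-48842608, plus strand): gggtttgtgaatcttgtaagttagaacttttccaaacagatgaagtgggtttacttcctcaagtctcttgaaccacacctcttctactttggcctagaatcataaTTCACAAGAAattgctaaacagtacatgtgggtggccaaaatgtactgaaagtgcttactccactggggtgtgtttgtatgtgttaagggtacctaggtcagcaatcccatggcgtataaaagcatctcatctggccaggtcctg
Ccl17 (chr8:94810203-94810452, plus strand): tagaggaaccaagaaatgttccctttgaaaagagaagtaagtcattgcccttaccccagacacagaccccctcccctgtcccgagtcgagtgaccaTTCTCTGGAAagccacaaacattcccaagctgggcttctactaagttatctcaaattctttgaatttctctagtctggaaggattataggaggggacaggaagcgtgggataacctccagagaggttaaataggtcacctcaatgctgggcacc
A match is a description of the letters and was not tested as a binding site.

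Most measured transcription factors of the IL-4 response rose. Of 12 measured, 7 rose (58.3% against 6.27% of all genes), 0 fell and 5 did not pass, with a median change of 1.05, and the count was lowest (3) without replicate 2 of both groups. Egr2, a zinc finger factor that is an early target of Stat6, was at 61.00, 55.6 and 48.8 FPKM with IL-4 and 4.19, 3.03 and 2.26 FPKM without, a log2 change of 3.77 ± 0.38 (limma adjusted p = 2.52e-14). Batf3, a partner of Jun and Irf factors, was at 3.98, 9.39 and 7.08 FPKM against 0.299, 0.944 and 0.979 FPKM (2.13 ± 0.30, limma adjusted p = 1.85e-08). Pparg, the lipid-sensing nuclear receptor, was at 37.2, 53.8 and 44.02 FPKM against 12.2, 24.4 and 21.1 FPKM, without overlap (1.22 ± 0.37, limma adjusted p = 0.0162). Bhlhe40, a circadian and immune regulator, changed by 1.56 ± 0.36 (limma adjusted p = 8.75e-04). The call of Pparg was lost without replicate 1, 2 or 3 of both groups, M1 → M0 replicate 1 or M1 → M2 replicate 2 (log2 change from 0.94 to 1.33, limma adjusted p from 0.0625 to 0.161). The call of Bhlhe40 was lost without replicate 2 of both groups (log2 change 1.25, limma adjusted p = 0.0872). With only the 6 libraries of the comparison fitted, the calls of Pparg and Bhlhe40 were lost. Irf4, which cooperates with Stat6 in naive macrophages and is named after its values were seen, was at 0.319, 0.162 and 0.195 FPKM in M1 → M2 and 0.0504, 0.0792 and 0.0687 FPKM in M1 → M0 (0.20 ± 0.43, limma adjusted p = 0.89), against 28.8, 12.4 and 10.2 FPKM in naive M2.

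The signalling chain itself changed little except at its inhibitors. Stat6 was at 96.1, 101 and 90.1 FPKM with IL-4 and 93.5, 103 and 92.4 FPKM without, a log2 change of -0.01 ± 0.10 (limma adjusted p = 0.991) with a 95% interval of -0.20 to 0.19. Jak1 changed by 0.10 ± 0.12 (limma adjusted p = 0.773), and the receptor chain Il4ra by 0.44 ± 0.27 (limma adjusted p = 0.391), neither past the test. Socs1, a feedback inhibitor of Jak kinases, was at 59.2, 82.3 and 69.6 FPKM against 1.44, 3.23 and 2.98 FPKM (4.36 ± 0.38, limma adjusted p = 3.82e-17). Related inhibitors rose from near 0: Socs2 was at 1.20, 1.77 and 1.69 FPKM against 0.0335, 0.117 and 0.151 FPKM (1.21 ± 0.25, limma adjusted p = 1.41e-04) and Cish at 5.71, 3.01 and 1.46 FPKM against 0.00696, 0 and 0.0105 FPKM (2.01 ± 0.54, limma adjusted p = 0.00595). Ptpn6, the phosphatase Shp1 that acts on Jak and Stat proteins, went the other way, at 53.5, 67.4 and 65.7 FPKM against 96.1, 127 and 112 FPKM (-0.84 ± 0.20, limma adjusted p = 0.00125). In all, 3 of 16 measured members rose (18.8% against 6.27% of all genes) and 1 fell (6.25% against 3.96%), with a median of 0.04. The call of Cish was lost without replicate 1 or 2 of both groups or M1 → M2 replicate 1 (log2 change from 1.64 to 2.01, limma adjusted p from 0.0609 to 0.139).

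Most measured M1 effectors did not pass the test at 24 h, and members moved in both directions. Nos2 had been at 624 FPKM (mean, n = 3) in M1 cells at 24 h, and was at 6.94, 4.42 and 4.61 FPKM in M1 → M2 and 4.38, 3.84 and 4.99 FPKM in M1 → M0. The groups overlapped, and the log2 change of 0.21 ± 0.36 (limma adjusted p = 0.851) had a 95% interval of -0.51 to 0.93. The cytokine Tnf was at 11.4, 9.30 and 10.9 FPKM against 19.98, 14.9 and 18.1 FPKM, without overlap and with a change of -0.69 ± 0.50 (limma adjusted p = 0.496), and it passed only in the fit of the 6 libraries alone. Of 20 measured M1 effectors, 1 rose (5% against 6.27% of all genes) and 2 fell (10% against 3.96%). Their median was 0.02 and their changes ranged from -1.07 to 1.00. Members that passed included cytosolic subunits of the phagocyte NADPH oxidase. Ncf1 was at 57.2, 60.04 and 47.9 FPKM against 94.4, 98.5 and 93.1 FPKM (-0.79 ± 0.12, limma adjusted p = 8.02e-08), and Ncf4 rose, at 189, 151 and 127 FPKM against 123, 76.7 and 79.1 FPKM (0.75 ± 0.18, limma adjusted p = 0.00192). The call of Ncf4 was lost without replicate 2 of both groups (log2 change 0.64, limma adjusted p = 0.083). In the fit of the 6 libraries alone, the call of Ncf4 was lost. With the replicate block 4 fell, including Cybb, the membrane subunit of the same oxidase, at -1.01 (limma adjusted p = 9.02e-06).

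Interferon-stimulated genes, 32 of them measured, gave 0 that rose and 1 that fell (3.12% against 3.96% of all genes), with a median change of -0.13. With the replicate block 1 rose and 2 fell. Their median stood 5.32 above day 0 (M0 cells before any stimulus) in M1 cells at 24 h on the log2 scale, 4.45 above it in cells kept in LPS and IFN-γ for 48 h, 1.63 above it in M1 → M0 and 1.49 above it in M1 → M2. The number that fell was 5 without M1 → M0 replicate 1, 3 without M1 → M2 replicate 3 or replicate 1 of both groups, and 0 without M1 → M0 replicate 2 or 3, M1 → M2 replicate 1 or replicate 2 or 3 of both groups. Of 17 interferon-induced GTPases only Gbp11 was called (5.88% against 6.27% of all genes higher), and it rose: 5.88, 4.37 and 4.16 FPKM against 0.502, 0.572 and 0.472 FPKM (1.93 ± 0.14, limma adjusted p = 3.56e-21). Gbp11 has close copies, with which its reads may be shared. Of 16 genes of MHC class I processing, Nlrc5, the transactivator of these genes, fell (-0.86 ± 0.21, limma adjusted p = 0.00208) and 15 did not pass (6.25% lower against 3.96% of all genes). None of 6 measured MHC class II genes passed, with changes from 0.11 to 0.39. Cd74, the invariant chain, was at 427, 449 and 348 FPKM against 334, 363 and 316 FPKM. The call of Nlrc5 was lost without replicate 2 of both groups or M1 → M0 replicate 3 (log2 change from -0.68 to -0.63, limma adjusted p from 0.0797 to 0.129). With only the 6 libraries of the comparison fitted, the call of Nlrc5 was lost.

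Tissue repair and matrix genes were mixed, with 5 of 26 measured members up (19.2% against 6.27% of all genes), 1 down (3.85% against 3.96%, and 2 members with the replicate block) and a median of -0.03. Mmp13, a collagenase, was at 297, 71.03 and 63.5 FPKM with IL-4 against 19.7, 6.44 and 7.12 FPKM, with replicate 1 the highest in both groups (3.37 ± 0.51, limma adjusted p = 1.75e-07). Hbegf, a growth factor of the EGF family, was at 4.88, 9.88 and 7.81 FPKM against 0.376, 0.519 and 0.586 FPKM (2.47 ± 0.36, limma adjusted p = 4.82e-08), and Tgfbi, a matrix protein induced by TGF-β, at 294, 229 and 146 FPKM against 79.9, 68.5 and 47.4 FPKM (1.73 ± 0.30, limma adjusted p = 3.77e-06). These secreted factors did not overlap between the groups. The growth factor Igf1 and Tgm2 were the other members that rose. Pdgfb, a growth factor for mesenchymal cells, fell, at 11.4, 11.7 and 6.35 FPKM against 28.6, 29.4 and 23.5 FPKM (-1.42 ± 0.43, limma adjusted p = 0.0182). The call of Pdgfb was lost without replicate 1, 2 or 3 of both groups, M1 → M0 replicate 1 or 2 or M1 → M2 replicate 3 (log2 change from -1.50 to -1.16, limma adjusted p from 0.0572 to 0.182). Among 15 costimulatory and coinhibitory ligands the 2 that rose (13.3% against 6.27% of all genes) were Pdcd1lg2 and Cd274, the ligands of PD-1. Cd274 was at 306, 178 and 183 FPKM against 114, 58.9 and 69.9 FPKM (1.46 ± 0.30, limma adjusted p = 1.65e-04), and its call was lost in the fit of the 6 libraries alone (limma adjusted p = 0.0502).

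Macrophage markers moved in both directions, 3 of 18 measured up (16.7% against 6.27% of all genes) and 4 down (22.2% against 3.96%). Lyz2, which encodes lysozyme, was at 1541, 1301 and 1234 FPKM with IL-4 and 2834, 2528 and 2364 FPKM without (-0.92 ± 0.15, limma adjusted p = 1.56e-06). Csf1r, the receptor of MCSF, was at 248, 374 and 301 FPKM against 178, 238 and 198 FPKM (0.58 ± 0.14, limma adjusted p = 0.00118). Cd14, the transcription factor Maf and Mertk, a receptor for the uptake of dead cells, fell as well, and the calls of Maf and Mertk were each lost under 5 of the settings that left out a library or replicate number. The call of Csf1r was lost without M1 → M2 replicate 2 (log2 change 0.43, limma adjusted p = 0.0607). In the fit of the 6 libraries alone, the calls of Csf1r and Lyz2 were lost. With the replicate block 4 rose and 7 fell, while 740 and 521 of all 8307 genes did. Some markers of other cell types moved too. Itgax, an integrin of dendritic cells, was at 17.6, 21.1 and 13.9 FPKM against 5.62, 4.09 and 3.27 FPKM (1.80 ± 0.32, limma adjusted p = 6.64e-06), and Pecam1, an adhesion protein of endothelium, at 4.65, 5.15 and 3.99 FPKM against 0.279, 0.187 and 0.288 FPKM (2.16 ± 0.37, limma adjusted p = 2.54e-06). The 4 measured dendritic cell markers, of 10 listed, summed to 21.4 to 31.0 FPKM in M1 → M2 and 4.34 to 6.07 FPKM in M1 → M0. Of these, Itgax and Batf3 rose (50% against 6.27% of all genes), and Batf3 is also in the list of IL-4 transcription factors. Clec9a (0.08, limma adjusted p = 0.887) and Fscn1 (0.16, limma adjusted p = 0.911) did not pass. The 2 endothelial markers summed to 15.8 to 22.5 and 6.10 to 11.8 FPKM. From the erythroid and megakaryocyte list only Pf4, Ppbp and Itga2b were measured, and they summed to 175 to 328 and 108 to 147 FPKM. Of these 3 only Pf4 was called (0.90, limma adjusted p = 0.0121). Itgax and Pecam1 also rose under IL-4 in naive cells, by 2.14 and 1.69. The part of other cell types in these values was not tested.

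Few genes of central metabolism passed the test. Of 26 measured TCA cycle and respiratory chain genes none passed (median 0.07, range -0.12 to 0.29), and 2 rose with the replicate block. Glycolysis gave 1 of 19 (5.26% against 6.27% of all genes higher), the lactate dehydrogenase Ldha (0.76 ± 0.24, limma adjusted p = 0.023), which was also lost under quantile normalization, and 2 with the block. Of 22 genes of cholesterol synthesis and other SREBP2 targets 2 fell (9.09% against 3.96% of all genes, median -0.14), and 5 fell and 1 rose with the block. Sc5d, a late enzyme of sterol synthesis, was at 8.11, 8.46 and 6.69 FPKM against 13.1, 14.2 and 12.5 FPKM (-0.71 ± 0.16, limma adjusted p = 4.72e-04). Of 15 targets of the oxidative stress factor NRF2, 5 fell and 0 rose (33.3% against 3.96% of all genes lower, median -0.13): Gsr, which reduces glutathione, was at 49.7, 41.8 and 36.6 FPKM against 75.5, 68.5 and 65.4 FPKM (-0.71 ± 0.15, limma adjusted p = 1.92e-04), and G6pdx, the first enzyme of the pentose phosphate pathway, at 68.5, 88.6 and 70.6 FPKM against 91.6, 131 and 107 FPKM (-0.52 ± 0.11, limma adjusted p = 3.54e-04). Slc7a11, a cystine importer and NRF2 target, was at 12.9, 1.39 and 1.75 FPKM in M1 → M2 and 13.5, 1.26 and 1.44 FPKM in M1 → M0, so that replicate 1 was high in both groups. Without replicate 1 of both groups, M1 → M0 replicate 1 or M1 → M2 replicate 3, 3 targets fell. The call of Ldha was lost without replicate 1, 2 or 3 of both groups, M1 → M0 replicate 2 or 3 or M1 → M2 replicate 1 or 2 (log2 change from 0.62 to 0.84, limma adjusted p from 0.0639 to 0.198). With only the 6 libraries of the comparison fitted, the calls of Ldha and G6pdx were lost.

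Genes of DNA replication fell in small number. Of 35 measured S phase genes 5 fell (14.3% against 3.96% of all genes) and 2 rose (5.71% against 6.27%), with a median of -0.32, while none of 48 G2 and M phase genes passed (median -0.16). Mcm7, a subunit of the replicative helicase, was at 1.63, 3.30 and 2.43 FPKM with IL-4 and 3.36, 10.6 and 6.44 FPKM without (-1.09 ± 0.28, limma adjusted p = 0.0027). Mcm6 of the same complex was at 15.98, 20.7 and 16.2 FPKM against 18.8, 40.6 and 29.2 FPKM (-0.66 ± 0.20, limma adjusted p = 0.0158), with groups that overlapped through M1 → M0 replicate 1. Dut, which removes dUTP, went the other way without overlap, at 28.9, 29.7 and 27.8 FPKM against 7.16, 8.68 and 7.70 FPKM (1.75 ± 0.18, limma adjusted p = 5.74e-14). The number of S phase genes that fell rested on single libraries, being 9 with the replicate block, 11 without M1 → M0 replicate 1, 8 without replicate 1 of both groups, 2 without M1 → M0 replicate 3 or M1 → M2 replicate 1, 1 without M1 → M2 replicate 3 or replicate 3 of both groups, 0 without M1 → M0 replicate 2 or replicate 2 of both groups, and 0 in the fit of the 6 libraries alone. The cell cycle inhibitor Cdkn1a (p21) was at 162, 249 and 205 FPKM against 84.5, 76.3 and 77.3 FPKM (1.34 ± 0.21, limma adjusted p = 2.98e-07). The call of Mcm7 was lost without replicate 2 of both groups or M1 → M0 replicate 2 (log2 change from -0.92 to -0.75, limma adjusted p from 0.0877 to 0.125). The call of Mcm6 was lost without replicate 2 or 3 of both groups, M1 → M0 replicate 2 or 3 or M1 → M2 replicate 1 or 3 (log2 change from -0.63 to -0.40, limma adjusted p from 0.0587 to 0.319). In the fit of the 6 libraries alone, the calls of Mcm7 and Mcm6 were lost.

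**Figure D3:**
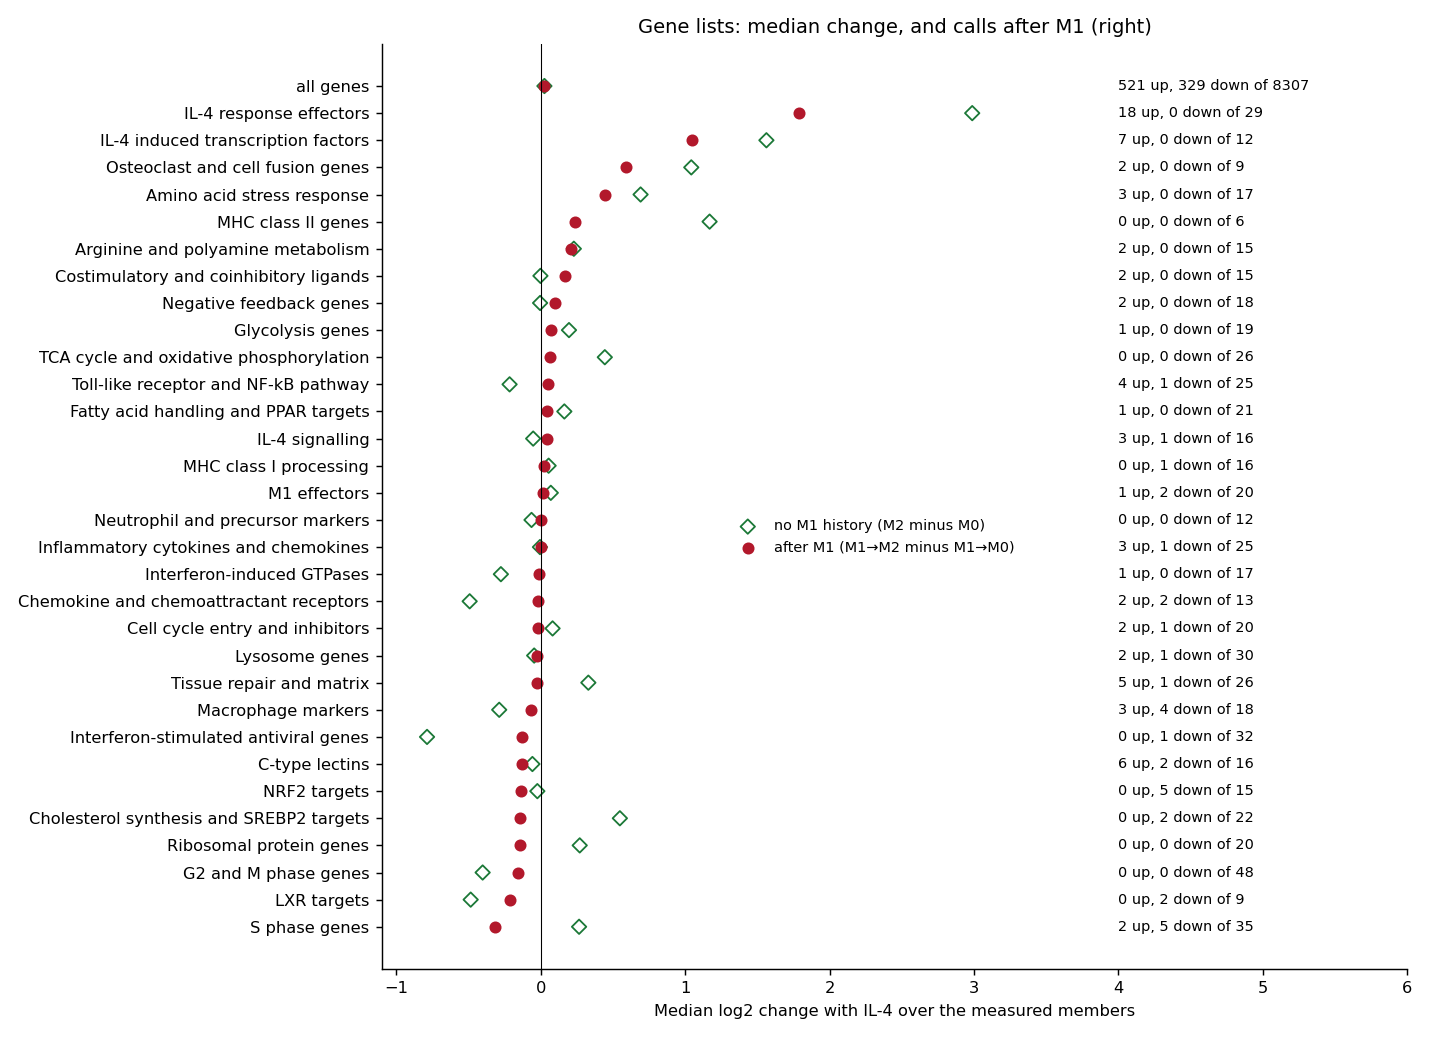
For each list with at least 6 measured genes, the median log2 change with IL-4 after M1 (filled circles, M1 → M2 minus M1 → M0) and without M1 history (open diamonds, M2 minus M0 at 24 h), with the calls after M1 written at the right. The IL-4 lists stand furthest to the right in both, with medians of 1.79 and 1.05 after M1 against 2.99 and 1.56 without M1 history, and most other lists stay near 0 after M1.

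The same cytokine was then compared in cells without M1 history. In naive cells IL-4 changed 2790 genes (33.6%), 1538 higher (18.5%) and 1252 lower (15.1%), and the difference between both IL-4 effects passed the test for 525 genes (6.32%), 247 with a higher log2 change after M1 (2.97%) and 278 with a lower one (3.35%). These contrasts share no libraries, but the M1-history cells were also 24 h longer in culture, and this cannot be told apart from the history. Markers of other cells differed between the histories as well. The 4 measured fibroblast markers summed to 4.08, 45.2 and 65.4 FPKM in naive M2 and 3.42, 57.7 and 61.6 FPKM in naive M0, and the 12 neutrophil and precursor markers to 46.5, 334 and 330.2 and to 60.9, 352 and 377 FPKM, so that naive replicates 2 and 3 lay above every M1-history library. No gene of either list was called in any of the contrasts, and their part in the differences was not tested. Of the genes called after M1, 607 were called in the same direction in naive cells, which is 71.4% of the first list and 21.8% of the second, and 6 in the opposite direction. These were Csf1r, Lpin1 and Clec4a1, which rose after M1 and fell in naive cells, and Mcm4, Fgfr1 and Pilra, which did the reverse, and the difference passed for each of them. Csf1r was at 348, 333 and 351 FPKM in naive M2 and 635, 499.7 and 529 FPKM in naive M0, and its difference was 1.26 ± 0.19 (limma adjusted p = 1.14e-06). With the replicate block 1110 of the 8307 differences passed, 527 higher and 583 lower. List counts of differences with the block belong beside these numbers. With each library centred on its median the split was 236 with a higher and 444 with a lower change after M1. Without replicate 1, 2 or 3 of all 4 groups 129, 242 and 267 passed, and without naive M0 replicate 1 alone 333 did.

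**Figure D4:**
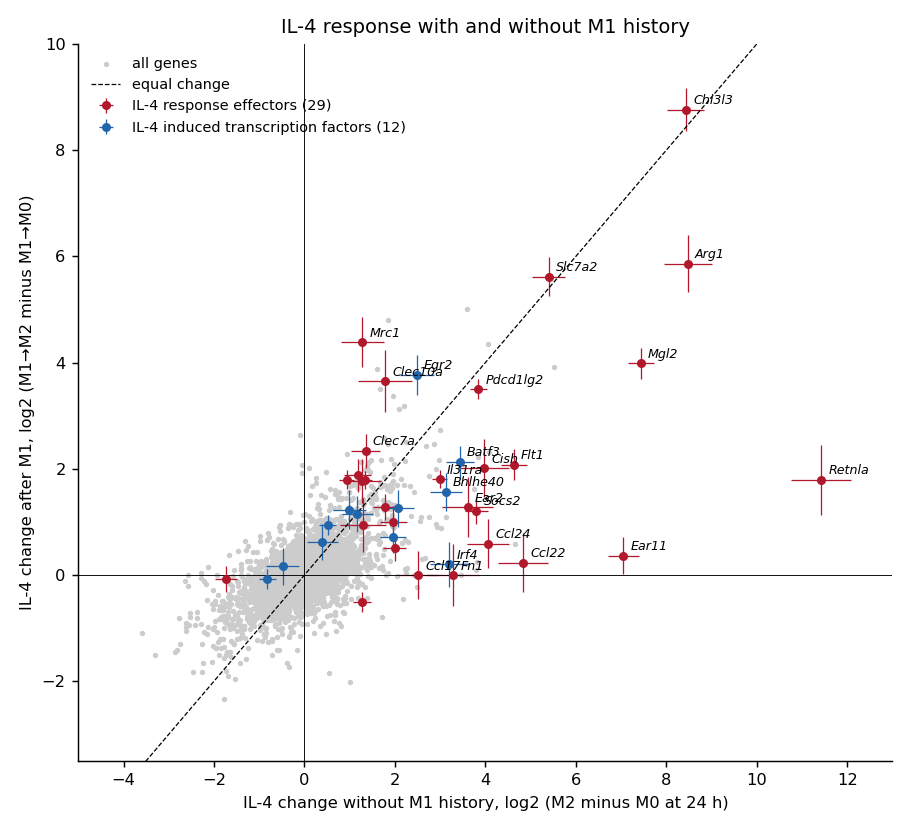
Log2 change with IL-4 in naive cells (x axis) against that after M1 (y axis) for all genes (grey) and for the members of both IL-4 lists, with bars of 1 standard error and a dashed line of equal change. Chi3l3 and Slc7a2 lie close to the line, Mrc1 lies above it, and Retnla, Ear11 and Ccl22 lie far below it.

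The effectors Chi3l3 and Slc7a2 and the inhibitor Socs1 changed by similar amounts in both, with differences of 0.33 ± 0.57 (limma adjusted p = 0.82), 0.22 ± 0.51 (limma adjusted p = 0.872) and 0.29 ± 0.54 (limma adjusted p = 0.833) that did not pass, which does not show that they are equal. The IL-4 change was smaller after M1 for 13 of the 29 effectors, against 3.35% of all genes with a lower change. Retnla led with a difference of -9.63 ± 0.93 (limma adjusted p = 2.57e-14), followed by Ear11 at -6.69 ± 0.50 (limma adjusted p = 2.13e-20) and Ccl22 at -4.60 ± 0.78 (limma adjusted p = 1.31e-05). Genes outside the effector list had smaller changes too. Ocstamp, a membrane protein of osteoclast fusion, was at 0.259, 1.24 and 0.460 FPKM in M1 → M2 and 43.6, 27.9 and 20.8 FPKM in naive M2, a difference of -4.07 ± 0.37 (limma adjusted p = 8.62e-16). Penk, the precursor of enkephalin peptides, was at 0.494, 0.310 and 0.685 FPKM and 27.5, 26.1 and 30.8 FPKM (-3.70 ± 0.30, limma adjusted p = 4.82e-18), and Il4i1, a secreted amino acid oxidase, at 1.14, 0.778 and 0.809 FPKM and 79.7, 26.3 and 20.4 FPKM (-3.58 ± 0.73, limma adjusted p = 3.86e-04). All of these had been low in naive M0 too, at most 1.97 FPKM in any library. Arg1 rose in both, and its difference of -2.61 ± 0.76 (limma adjusted p = 0.0201) was lost without naive M0 replicate 1 and without each replicate number in turn.

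The difference was positive for 3 of the 29 effectors (5 with the replicate block), against 2.97% of all genes, and for genes beyond the list. In naive cells 28 effectors rose (against 18.5% of all genes) and 1 fell (against 15.1%). F13a1 changed by -0.07 after M1, and its difference with the block was 1.66 (limma adjusted p = 3.68e-05). A positive difference thus need not mean a rise after M1. Mrc1 was at 152, 137 and 146 FPKM in naive M0 against 2.30, 8.53 and 7.70 FPKM in M1 → M0, and the difference of the changes was 3.11 ± 0.67 (limma adjusted p = 8.52e-04). The larger log2 change of Mrc1 after M1 thus started from a lower level, and it does not mean a higher level with IL-4. Fcgr2b showed the same form, at 53.8, 41.6 and 53.3 FPKM in naive M0 and 159.6, 168 and 216 FPKM in naive M2, with a difference of 2.95 ± 0.36 (limma adjusted p = 3.44e-10). With IL-4 the levels of Fcgr2b in both histories were close. Ednrb, an endothelin receptor, rose after M1 from 4.16, 2.81 and 3.64 to 31.97, 24.9 and 24.4 FPKM, but was at 11.1, 9.95 and 8.57 FPKM in naive M0 and 5.34, 9.03 and 15.04 FPKM in naive M2 (2.74 ± 0.62, limma adjusted p = 0.00151). Other positive differences came from falls seen in naive cells. Ms4a6b, a membrane protein of the MS4A family, was at 68.3, 51.2 and 49.1 FPKM in naive M0 and 2.95, 2.93 and 5.54 FPKM in naive M2, against 28.4, 64.8 and 68.7 and 18.5, 19.9 and 32.6 FPKM after M1 (2.50 ± 0.38, limma adjusted p = 1.14e-06). Rtp4, an interferon-stimulated gene, changed in naive cells by -2.58 ± 0.29 (limma adjusted p = 3.05e-12) and after M1 by -0.20 ± 0.29 (limma adjusted p = 0.816), a difference of 2.38 ± 0.41 (limma adjusted p = 2.11e-05) that was lost in the fit of the 12 libraries alone. Nptx1, a pentraxin, gave a difference of 2.31 ± 0.67 (limma adjusted p = 0.0189). Without replicate 1 of all 4 groups the differences of Mrc1, Ednrb and Nptx1 were lost, at 2.78, 2.30 and 1.67 (limma adjusted p = 0.0566, 0.114 and 0.401), and that of Nptx1 also without naive M2 replicate 1, M1 → M0 replicate 1 or M1 → M2 replicate 2.

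Members of other lists differed between the histories as well. Interferon-stimulated genes fell in naive cells in 17 of 32 cases against 15.1% of all genes (median -0.79), and for 8 the difference was positive against 2.97% of all genes, among them Oas2 at 1.75 ± 0.30 (limma adjusted p = 1.93e-05) and Irf7 at 1.38 ± 0.32 (limma adjusted p = 0.00183), sensors and factors of antiviral defence. Irf7 was at 191, 243 and 250.1 FPKM in M1 → M2 against 1.64, 1.75 and 2.86 FPKM in naive M2. These levels compare the histories and not the IL-4 effect. After M1, IL-4 changed Irf7 by -0.22 (limma adjusted p = 0.695), which did not pass. All 6 measured MHC class II genes rose in naive cells against 18.5% of all genes (median 1.17) and none after M1, and the difference passed for Cd74 alone (-1.62 ± 0.52, limma adjusted p = 0.0405), and with the replicate block also for H2-Ab1 (-1.098, limma adjusted p = 0.0484). For cholesterol genes 11 of 22 rose in naive cells against 18.5% of all genes, and 9 had a smaller change after M1 against 3.35% of all genes, such as Fdps of the isoprenoid pathway (-1.26 ± 0.32, limma adjusted p = 0.00508). Of 26 TCA cycle and respiratory genes 16 rose in naive cells against 18.5% of all genes. Of these 26, 4 had a smaller change after M1 against 3.35% of all genes, such as the isocitrate dehydrogenase subunit Idh3a (-0.79 ± 0.19, limma adjusted p = 0.00319). With the replicate block 9 of the 26 had a smaller change. Of 35 S phase genes 6 rose in naive cells, a share near the 18.5% of all genes. A smaller change after M1 was called for 7 of them against 3.35% of all genes, and for 12 with the block. Oas2, Irf7, Cd74, Fdps and Idh3a are named after their values were seen. The difference of Cd74 was lost without any 1 replicate number and without each library but naive M0 replicate 3, naive M2 replicate 3 and M1 → M2 replicate 2 (log2 difference -1.86 to -1.29, limma adjusted p up to 0.372), and under quantile normalization (-1.52, limma adjusted p = 0.0689). That of Irf7 was lost without replicate 1 (0.89, limma adjusted p = 0.289) and in the fit of the 12 libraries alone (limma adjusted p = 0.0724), and that of Idh3a without replicate 1 (-0.67, limma adjusted p = 0.149). That of Fdps was lost without replicate 2 or 3 or M1 → M0 replicate 2 and in the fit of the 12 libraries alone (log2 difference -1.26 to -1.001, limma adjusted p up to 0.0906).

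The 24 h values are one point of a course from 1 to 72 h after the switch, given here as group means without tests. With IL-4, Socs1 stood at 194, 400.3, 371, 231, 162, 70.3 and 39.9 FPKM at 1, 2, 4, 6, 12, 24 and 72 h, and without at 60.6, 28.3, 7.47, 4.86, 4.96, 2.55 and 1.94 FPKM. Its highest M1 → M2 mean was at 2 h. Chi3l3 climbed at every step, from 0.454 FPKM at 1 h over 71.02 at 4 h and 469 at 12 h to 2864 FPKM at 72 h, while M1 → M0 stayed between 0.323 and 1.47 FPKM. Arg1 was already at 390.0 FPKM in M1 cells at 24 h, fell in M1 → M0 to 19.8 FPKM at 24 h and 4.34 at 72 h, and was highest in M1 → M2 at 12 h, at 1821 FPKM. By 24 h the M1 → M0 mean of Arg1 thus lay below the M1 level before the switch. The M1 → M2 libraries at 24 h lay above that level, though below the 12 h mean. The M1 → M0 means of Fcgr2b and Ccl7 fell too, that of Fcgr2b being 39.5 FPKM in M1 → M0 at 1 h and 4.998 at 24 h and that of Ccl7 222 and 29.2 FPKM. Mrc1 rose in M1 → M2 from 3.02 FPKM at 1 h to 141 at 24 h and 331 at 72 h, and in M1 → M0 from 6.18 FPKM at 24 h to 59.04 at 72 h.

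Effectors that were far below the naive level at 24 h were followed to 72 h. Retnla in M1 → M2 had a mean of 26.1 FPKM at 12 h (libraries 2.71 to 71.7), 3.97 at 24 h and 91.5 at 72 h (libraries 6.33 to 147), against 8259 FPKM in cells kept in IL-4 for 48 h. Its 72 h libraries spread widely and stayed under the naive M2 level. Ear11 reached 2.72 FPKM at 72 h, Ccl22 0.468 and, outside the effector list, Ocstamp 1.60 FPKM. Mgl2 climbed from 9.08 FPKM at 12 h to 17.7 at 24 h and 47.9 at 72 h, against 343 FPKM in naive M2 at 24 h. Over the 29 effectors the median difference between M1 → M2 and M1 → M0 was -0.01, 0.48, 1.74, 1.79 and 1.73 at 1, 4, 12, 24 and 72 h, and over the 12 transcription factors 0.05, 0.87, 0.96, 1.05 and 0.89. The transcription factors were thus near their 24 h median by 4 h and the effectors by 12 h.

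The M1 gene Nos2 declined in both media, being at 607, 588, 384, 180.3, 30.7, 5.32 and 1.05 FPKM in M1 → M2 at 1, 2, 4, 6, 12, 24 and 72 h and at 581, 562, 292, 124, 27.3, 4.40 and 1.65 FPKM in M1 → M0. The M1 → M2 mean lay above that of M1 → M0 at each time from 1 to 24 h, and below it at 72 h. The median difference of the 32 interferon-stimulated genes changed sign, from 0.60 and 0.24 at 6 and 12 h to -0.13 and -0.50 at 24 and 72 h, and that of all genes stayed between -0.01 and 0.02. For S phase genes it went from -0.06 at 12 h to -0.32 at 24 h and -1.05 at 72 h, and for G2 and M phase genes from -0.04 to -0.16 and -1.65. The separation of cell cycle genes between the media was therefore small at 24 h beside that at 72 h. Cd14 was at 49.9 FPKM with IL-4 and 55.2 without at 6 h, 12.6 and 48.5 at 24 h, and 16.4 and 101 at 72 h.

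**Figure D5:**
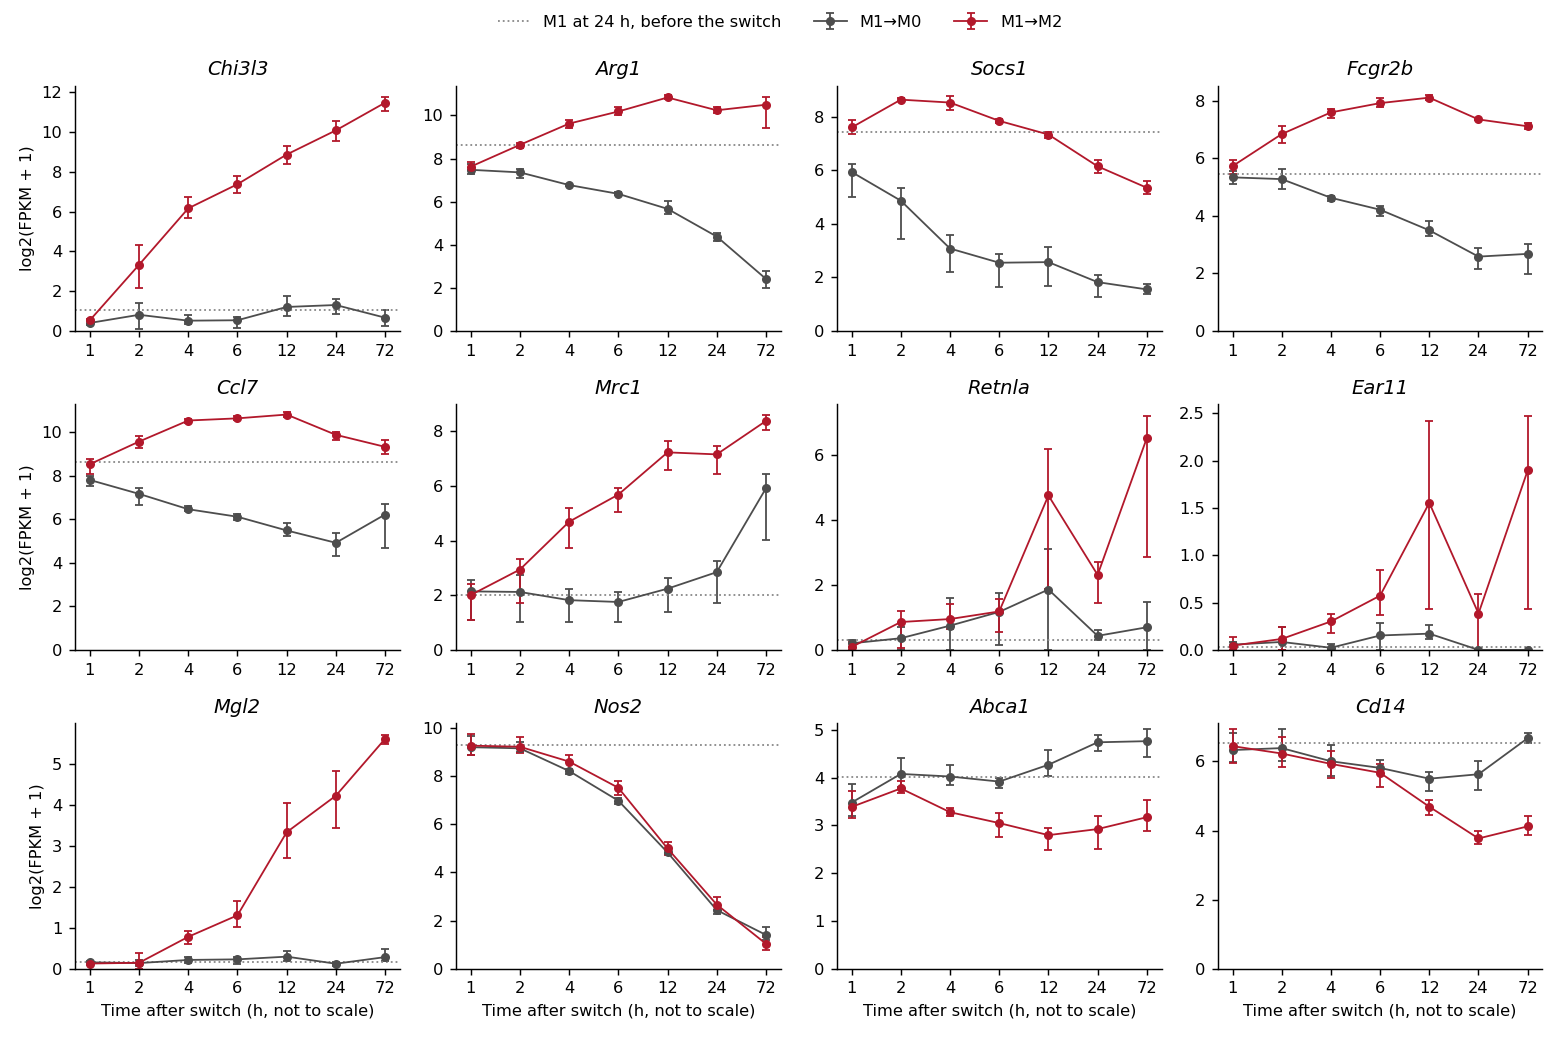
Mean log2(FPKM + 1) of 12 named genes at 7 times after the switch, in M1 → M2 and M1 → M0, with bars from the lowest to the highest library and a dotted line at the M1 level before the switch. Chi3l3 climbs only with IL-4, Nos2 declines in both media, and Retnla and Ear11 show wide bars at 12 and 72 h.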

How the data were processed

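RNA was sequenced by the authors from mouse BMDMs, and the deposited matrix holds log10(FPKM + 1) values of 8307 genes in 145 bulk libraries. The submitters' processing notes name TopHat2 2.0.14, Cuffnorm 2.2.2 and mm10. Every gene in the matrix reached at least 10 FPKM in some library, so genes low in all libraries are not measured here. No counts or read totals were used, so the depth is unknown and no counting interval is given. The study's own test, Cuffdiff, needs the reads.

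The log10 values were turned back to FPKM and then to log2(FPKM + 1), with a pseudocount of 1 FPKM. One limma model (limma 3.58.1, R 4.3.3) with a trend was fitted to all 145 libraries with a mean per condition, so that all conditions share 1 estimate of the spread. The contrasts were M1 → M2 minus M1 → M0, M2 minus M0 at 24 h, and their difference. Adjusted p-values follow Benjamini-Hochberg over all 8307 genes in each contrast, with a threshold of 0.05, and tests are two-sided. A 95% interval is the limma estimate's own. The code was tested on simulated data with known changes. Motifs were searched in Python 3.11.15, and figures drawn with matplotlib 3.10.9.

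Members, gene lists and tests were chosen with earlier results of these data known. Named genes are the 10 largest called rises and falls with a group mean of at least 20 FPKM and no overlap, up to 4 called members of each list plus up to 2 that moved against the others, the genes the study names as markers, and the 6 largest differences in each direction between the histories. Some genes outside the rule are said to be named after their values were seen. Others, such as Igf1, Ccl4, Ccl5, Il4ra, Cybb and Slc7a11, are outside the rule too but carry no such statement. Predicted genes were left out, and a few genes within the rule are not reported here on purpose.

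Replicate numbers in the labels pair the libraries: after group means were taken off, same-numbered M1 → M2 and M1 → M0 libraries correlated at 0.774, 0.671 and 0.619 and naive M2 and M0 at 0.688, 0.346 and 0.574, across genes. The model without the replicate as a block was kept as the main one. Alternatives were another pseudocount, a filter on low genes, no trend, median-centring, quantile normalization, the libraries compared alone, the replicate block and leaving out libraries.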

Additional observations from a re-analysis of the deposited data

Results flagged for a closer look

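The IL-4 effect differed by M1 history, tested as the difference of both contrasts in 1 limma model, for 247 genes with a higher and 278 genes with a lower log2 change after M1. Of the named genes, the difference of the log2 changes was positive for Mrc1 (3.11), Fcgr2b (2.95), Ednrb (2.74), Ms4a6b (2.50), Rtp4 (2.38) and Nptx1 (2.31). It was negative for Retnla (-9.63), Ear11 (-6.69), Ccl22 (-4.60), Ocstamp (-4.07), Penk (-3.70) and Il4i1 (-3.58). The cells with M1 history were also 24 h longer in culture, which cannot be told apart from the history.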

How the results depend on the processing

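The limits are the 3 libraries per group, whose origin in separate mice is not stated, the unknown depth, and a scale that compresses genes near 0. Fitting only the libraries compared left 448 genes called after M1, 281 higher and 167 lower, of which 411 were among the 850, and 169 lower differences between the histories. The replicate block gave 1261 calls after M1, with 521 lower and all 850 among them, and 1110 differences between the histories (527 higher, 583 lower). It gave 3532 calls in naive cells. Median-centring gave 444 lower differences and quantile normalization 450. The calls after M1 split 52.7% higher under median-centring and 51.3% under quantile normalization, against 61.3% as reported. The cause of these shifts was not tested.

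Leaving out 1 library or 1 replicate number left 457 to 817 calls after M1, with 293 to 552 higher and 164 to 347 lower. In naive cells it left 1729 to 2734 calls, with 989 to 1629 higher and 740 to 1158 lower. For the difference between the histories it left 129 to 586, with 54 to 253 higher and 75 to 359 lower. No called gene changed direction under any alternative run. Of 85 named genes called after M1, 44 were called under every alternative run and 41 were lost under at least 1. Another pseudocount, the filter on low genes and the model without trend kept every count named here within 1.5 times. Apart from the list counts given with the block, the block ended no call made after M1.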
